A study of Homo sapiens with 15 samples.

Results

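In Reh cells, 53 protein-coding genes were higher than in the tagBFP control when wild-type ETV6 was induced and about equally higher when ETV6 R399C was induced. These genes were chosen by measured values. The reads of each gene were expressed as CPM, the reads per 1000000 reads of named genes, and differences are log2 of the group means after adding 0.5 CPM. A gene was taken when it had at least 2 CPM with wild-type ETV6, stood at least 0.9 above tagBFP with each ETV6 form, and differed by less than 0.58 between the forms. Of 33367 named genes, 10986 were protein-coding with at least 2 CPM, 60 met the rule, and 7 of those were left out because the rule excludes them by name. What the rule used is given below as a description, with no test. Only the libraries with interference at ERG, which the rule did not use, are tested.

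The series measured messenger RNA in Reh, a B-lymphoblastic leukaemia cell line with the ETV6::RUNX1 fusion and without an intact normal ETV6 allele. The 15 libraries form 5 groups of 3, and all cells received 500 ng/ml doxycycline. The groups ETV6_WT, ETV6_R399C and tagBFP are transduced populations that carried a doxycycline-inducible transgene and were induced for 48 h. The transgene was V5-tagged wild-type ETV6, V5-tagged ETV6 with R399C, or the blue fluorescent protein tagBFP, for which the labels name no V5 tag. The groups sgERG and sgCtrl carried inducible dCas9-KRAB, a repressor domain on inactive Cas9, with guide RNAs that either point it to the promoter of ERG or have no target. These cells had been sorted and were induced for 72 h. Nothing in the labels says that the 3 libraries of a group were separate cultures, so their spread may be technical.

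ETV6 is an ETS-family transcription factor that recruits corepressors, and its ETS domain binds DNA around a GGAA core. R399C lies in the ETS domain. A repressor lowers its direct targets. The genes described here were higher with ETV6 and with its altered form, and whether any of them is a direct target was not tested. ERG is another ETS factor, which mostly activates its targets and can bind the same GGAA core. The members are a mixed group of transcription factors, immune signalling proteins, regulators of small GTPases and the cytoskeleton, secreted proteins and others. They were grouped by textbook role after the members were known.

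Libraries held 20395193 to 48950747 reads of named genes. ETV6 itself averaged 480.4 CPM in ETV6_WT, 378.0 in ETV6_R399C and 5.85 in tagBFP. ERG went from a mean of 521 CPM with sgCtrl to 105.7 with sgERG. The B-lineage markers (10 genes, VPREB1 at 0 in all libraries) summed to 5532 to 5663 CPM with tagBFP, 6995 to 7147 with ETV6_WT, 6723 to 6909 with ETV6_R399C, 7772 to 7965 with sgERG and 8900 to 9002 with sgCtrl, and their part in the results below was not tested. T-cell and erythroid markers reached at most 1.35 and 0.12 CPM in sum. Myeloid markers (6 genes, 3 of them under 1 CPM in all libraries) summed to 16.3 to 35.5 CPM with S100A8 and S100A9 at 0. Megakaryocyte markers (3 genes, 2 of them under 1 CPM in all libraries) summed to 3.21 to 10.1 CPM with PF4 at 0. Stromal markers (4 genes, COL3A1 at 0) summed to 12.6 to 16.1 CPM over the transgene libraries, 38.6 to 42.0 with sgCtrl and 47.9 to 53.9 with sgERG. Of these genes 3 were under 1 CPM in all libraries, so the sums rest mainly on the remaining gene. Their part in the results was not tested either. Mitochondrial genes took 0.96% to 1.42% of reads in the transgene libraries and 2.58% to 3.30% in the interference libraries. In bulk RNA, a change in the share of cells and a change in RNA per cell cannot be told apart.

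The differences from tagBFP had a median of 1.26 with ETV6_WT (0.91 to 3.43) and 1.22 with ETV6_R399C (0.91 to 2.88), beside medians of -0.02 and 0.01 over the 10986 genes. Among those genes 1.33% stood at least 0.9 above tagBFP with ETV6_WT and 1.26% with ETV6_R399C. In 40 members both differences were at least 1, and in 4 (FAM117B, TIAF1, MSLNL and COL20A1) at least 2. Of these, FAM117B was listed at 0 in a library of each ETV6 form, and TIAF1 lies within MYO18A on the same strand. In 48 of the 53, every library of both ETV6 forms lay above every tagBFP library, which held for 17.9% of the 10986 genes. The exceptions are FAM117B, TLR9, RFX7, SKIV2L and FRMD4B. In ETV6_WT, ETV6_R399C and tagBFP, the SD over the 3 libraries of a group was at most 30% of the mean in 43 members, and at most 10% in 27. It went above 30% in these 5 and in NYAP1, TP63, AFF3, MSLNL and COL20A1. A further 15 genes passed the rise with both forms but differed by 0.58 or more between them, 13 higher with ETV6_WT and 2 with ETV6_R399C.

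**Figure D1:**
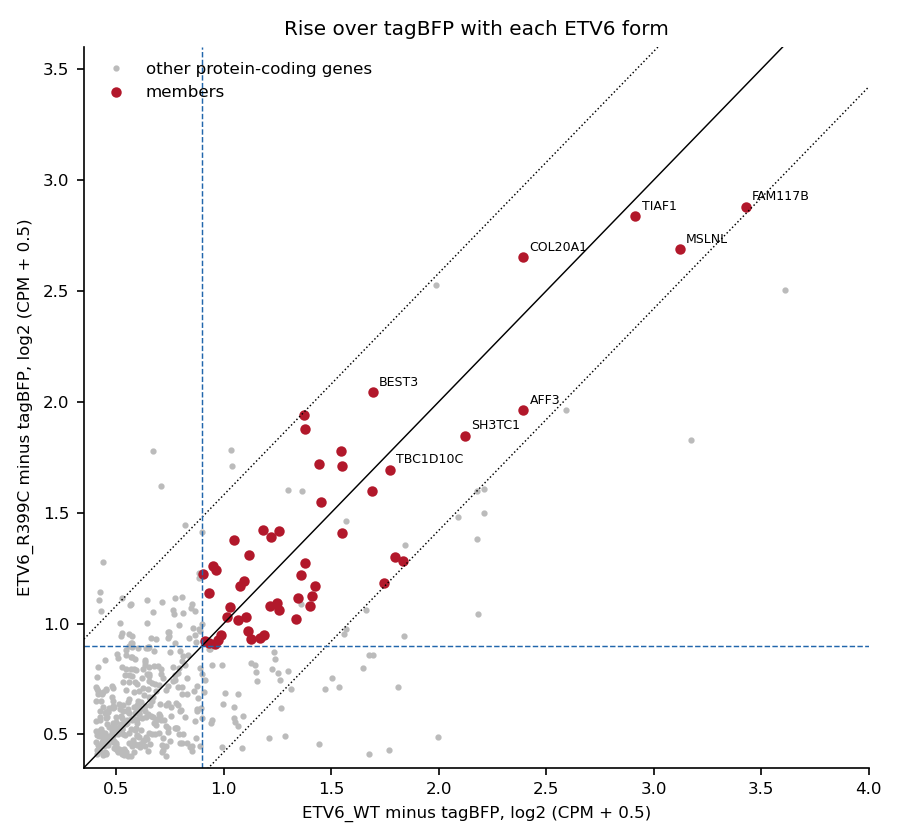
Difference from tagBFP with ETV6_WT (horizontal axis) and with ETV6_R399C (vertical axis), both in log2 of CPM + 0.5. Each point is a protein-coding gene with at least 2 CPM with ETV6_WT that lies above 0.4 on both axes, with the 53 members in red. Dashed lines mark 0.9, dotted lines a difference of 0.58 between the forms, and ETV6 itself lies beyond the axes. The 4 members with both values over 2 are FAM117B, TIAF1, MSLNL and COL20A1.

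The form with the higher mean was ETV6_WT for 31 members and ETV6_R399C for 22. The median size of the difference between forms was 0.20, and it was under 0.1 in 15 members. The 3 libraries of ETV6_WT were all above those of ETV6_R399C in 16 members and all below in 10. Together these are 26 of 53, and the same separation held for 43.3% of the 10986 genes. Alike therefore means within the rule's limit, not without a difference between the libraries. RHOB (log2 difference 0.55), AGR2 (0.56) and PIWIL4 (0.50) stood higher with ETV6_WT, while KLF2 (-0.57), RIMS3 (-0.50) and BEST3 (-0.35) stood higher with ETV6_R399C, each without overlap of the libraries.

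Close to the limits, ABLIM1 and FRMD4B were just inside the rise, with smaller differences of 0.906 each. LSP1 and SLC35E3 were just outside, at 0.90 and 0.898. At the limit between forms, AGR2 and KLF2 lay just inside (0.563 and 0.565), and FNDC5 and AMBP just outside (0.581 and 0.595).

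**Figure D2:**
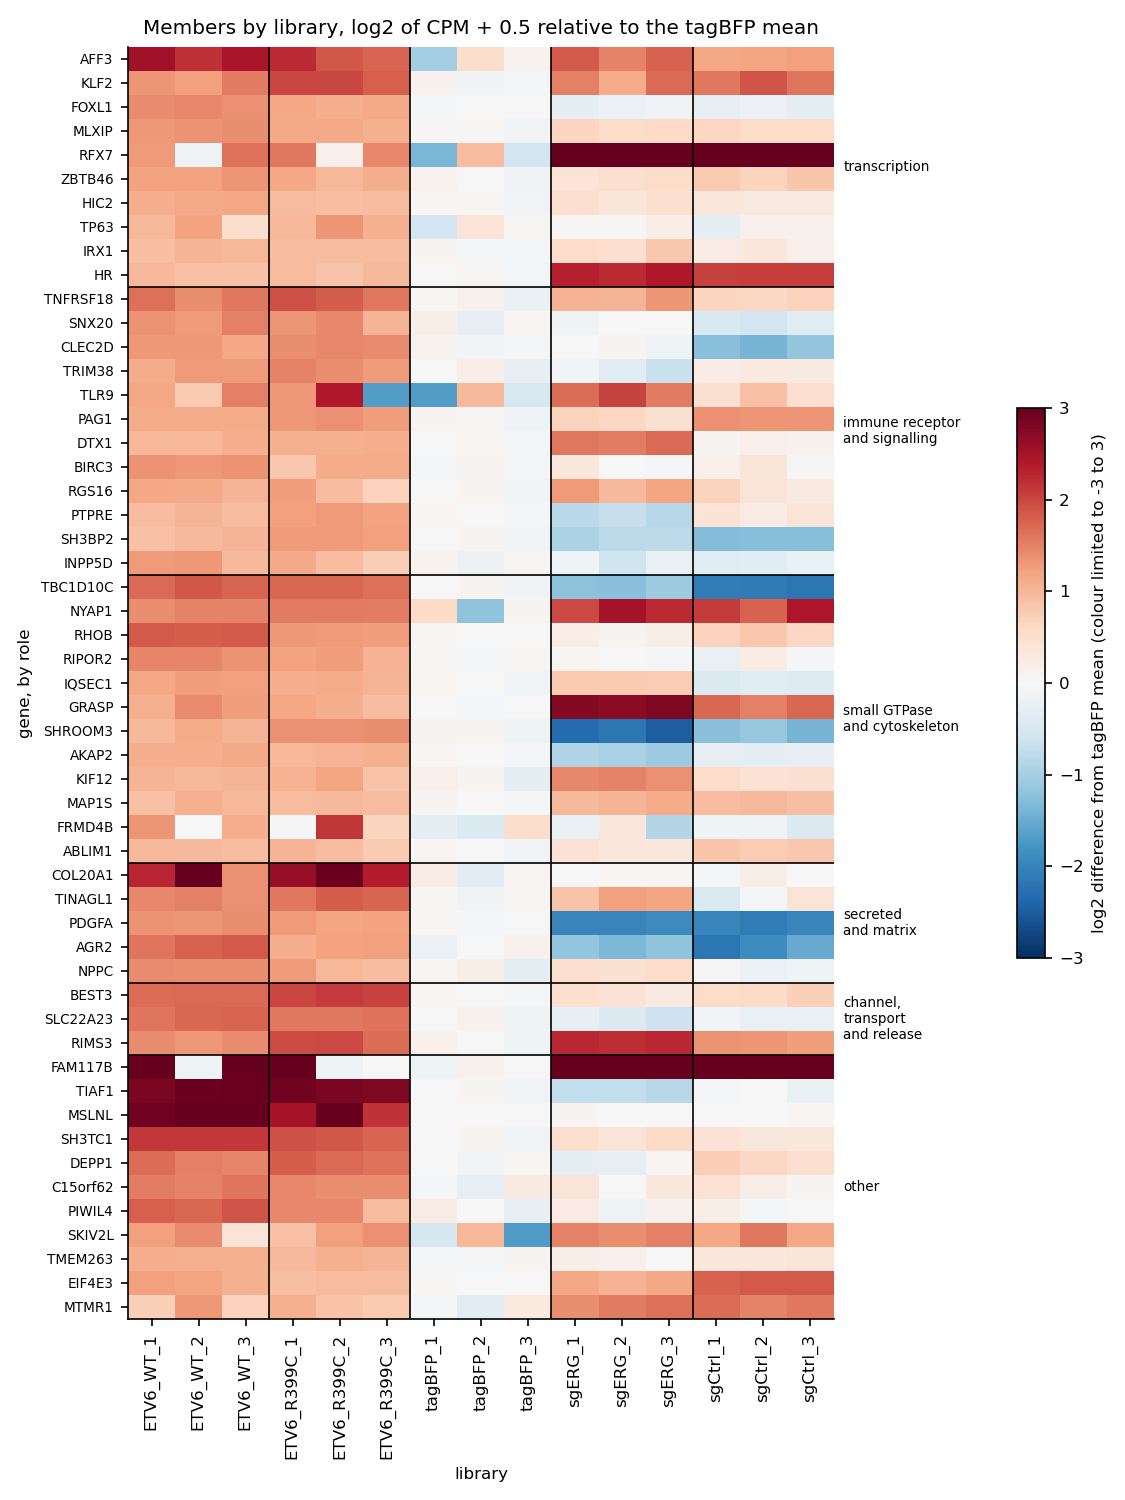
Level of each member (rows, by role) in each of the 15 libraries (columns), as log2 of CPM + 0.5 minus the tagBFP mean; red is higher and blue lower, with colours limited to 3 in each direction. The 6 libraries of the ETV6 forms are red in nearly every row, FAM117B, RFX7, TLR9 and FRMD4B are uneven within a group, and the sgERG and sgCtrl libraries show no common colour.

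Promoter sequences from RefSeq (GRCh38.p14, 250 bases before to 50 after the start site, 300 in all) were found for 39 of the 53 members. The core GGAA, on either strand, was present in 97.4% of these and in 95.1% of 15843 promoters of protein-coding genes. GGAAGGAA, the shortest repeat of that core, was present in 2 members (5.13%, beside 3.58% of all promoters), SLC22A23 and RGS16. CAGGAAGT was present in 2 members (5.13%, beside 3.21%), TRIM38 and INPP5D, and CCGGAAGT in none, beside 6.19%. Both strands were searched, and every one of these longer motifs contains GGAA. The median GC content was 66.7% in the members and 62.7% in all.

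The 250 bases before the start site are printed for the 3 members with a match there, to show where the ETS-type letters lie, with the match in capitals. INPP5D (chr2:233060092-233060341, forward strand) has CAGGAAGT from position -13. RGS16 (chr1:182604390-182604639, reverse strand) has the reverse complement of GGAAGGAA from position -203. SLC22A23 (chr6:3324151-3324400, reverse strand) has GGAAGGAA from position -246, at a RefSeq start site 132872 bases inside the gene as GENCODE 29 draws it. The RefSeq start sites of INPP5D and RGS16 lie 375 and 19 bases from the outermost GENCODE start. A match is a description of letters and not a bound site.
INPP5D: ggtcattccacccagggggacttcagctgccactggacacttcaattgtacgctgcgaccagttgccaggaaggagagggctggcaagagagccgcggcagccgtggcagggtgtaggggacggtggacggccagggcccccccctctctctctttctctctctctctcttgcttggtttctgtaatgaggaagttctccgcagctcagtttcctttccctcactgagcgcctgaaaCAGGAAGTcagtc
RGS16: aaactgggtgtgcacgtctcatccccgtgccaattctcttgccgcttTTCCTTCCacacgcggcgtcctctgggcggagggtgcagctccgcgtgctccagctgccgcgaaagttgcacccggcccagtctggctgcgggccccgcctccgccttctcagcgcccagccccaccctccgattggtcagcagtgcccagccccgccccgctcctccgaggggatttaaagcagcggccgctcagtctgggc
SLC22A23: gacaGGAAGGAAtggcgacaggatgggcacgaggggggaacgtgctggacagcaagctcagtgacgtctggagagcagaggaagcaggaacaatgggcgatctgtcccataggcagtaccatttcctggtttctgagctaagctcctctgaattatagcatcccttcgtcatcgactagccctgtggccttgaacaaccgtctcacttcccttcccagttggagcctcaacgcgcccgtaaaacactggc

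The 10 transcription factors and cofactors had a median difference from tagBFP of 1.19 with ETV6_WT and 1.12 with ETV6_R399C. AFF3, a nuclear protein of elongation complexes that is active in the lymphoid lineage (chromosome 2, 99545419 to 100142739, reverse strand, hg38), stood at 32.8, 26.2 and 31.0 CPM with ETV6_WT, at 26.9, 20.6 and 18.8 with ETV6_R399C, and at 2.37, 7.83 and 5.72 with tagBFP. The tagBFP libraries were all below the others, and the log2 differences were 2.39 and 1.96. The protein-coding transcript AFF3-201 held 84.9% of its reads with ETV6_WT and 62.6% with tagBFP. KLF2, a zinc-finger factor of lymphocyte quiescence and homing, read 4.96, 4.66 and 5.92 CPM with ETV6_WT, 8.27, 8.34 and 7.11 with ETV6_R399C, and 1.90, 1.54 and 1.62 with tagBFP. All ETV6_R399C libraries were above all ETV6_WT libraries.

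MLXIP, the glucose-sensing factor MondoA, had the highest CPM among the members. It read 653, 680 and 694 CPM with ETV6_WT, 586, 582 and 560 with ETV6_R399C, and 272, 272 and 252 with tagBFP, so the 3 groups did not overlap (log2 1.35 and 1.12). IRX1, an Iroquois homeobox factor encoded by a single annotated transcript, read 145, 157 and 156 CPM with ETV6_WT, 148, 147 and 148 with ETV6_R399C, and 81.8, 76.1 and 74.7 with tagBFP. The forms overlapped there. Per length, these are among the 3 highest members with ETV6_WT: TPM divides reads by transcript length, and SH3TC1 had a mean of 349.7 TPM and IRX1 100.8, with MLXIP between them.

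FOXL1, a forkhead factor, averaged 34.5 CPM in ETV6_WT, 28.3 in ETV6_R399C and 12.7 in tagBFP. The means of the BTB zinc-finger repressor HIC2 were 65.7, 57.3 and 29.8 CPM, and those of ZBTB46, a zinc-finger factor of dendritic cells, 17.8, 15.9 and 7.21. HR, a corepressor of nuclear receptors, stood at 29.7, 29.9 and 15.6 CPM, and the p53-family gene TP63 at 2.16, 2.56 and 0.893. RFX7, a winged-helix factor, cannot be read in the same way: it held 0.00, 2.00 and 0.37 CPM with tagBFP and 2.63, 0.65 and 3.46 with ETV6_WT, but 35.8, 23.7 and 36.9 with sgCtrl. Its protein-coding transcript RFX7-201 held 95% of the gene's reads with sgCtrl and was listed at 0 in the ETV6_WT, ETV6_R399C and tagBFP means.

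The 12 immune receptors and signalling proteins had medians of 1.18 with ETV6_WT and 1.27 with ETV6_R399C, and 8 of them had the higher mean with ETV6_R399C. TNFRSF18, the TNF-receptor family member GITR (chromosome 1, 1203508 to 1206691, reverse strand), read 20.8, 17.2 and 19.5 CPM with ETV6_WT, 24.9, 23.2 and 19.6 with ETV6_R399C, and 6.53, 6.82 and 5.33 with tagBFP. The tagBFP libraries lay below all others while the forms overlapped, and its 2 leading transcripts, both protein-coding, kept shares of 74.6% and 17.0% with ETV6_WT beside 74.0% and 19.4% with tagBFP. CLEC2D, the ligand of the natural-killer receptor KLRB1, read 42.8, 42.8 and 38.2 CPM with ETV6_WT, 45.6, 46.8 and 45.9 with ETV6_R399C, and 18.2, 16.0 and 16.6 with tagBFP. The leading transcript of CLEC2D, CLEC2D-206, is annotated as nonsense-mediated decay and not as protein-coding. It held 45.4% of the gene's reads with ETV6_WT and 48.3% with tagBFP. A processed pseudogene that overlaps CLEC2D on its strand, AC007068.1, had means of 20.4, 23.9 and 9.08 CPM, and reads may have been shared between the pair.

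DTX1, a ubiquitin ligase of the Notch pathway (chromosome 12, 113056709 to 113098028, forward strand), read 121, 121 and 128 CPM with ETV6_WT, 127, 127 and 128 with ETV6_R399C, and 60.6, 62.4 and 57.6 with tagBFP. With log2 differences of 1.03 and 1.07 it is among the members most alike with both forms. PTPRE, a receptor-type tyrosine phosphatase, read 92.6, 98.5 and 94.4 CPM with ETV6_WT, 115, 118 and 113 with ETV6_R399C, and 49.8, 48.9 and 47.0 with tagBFP. PAG1, a membrane adaptor that recruits the kinase CSK, read 226, 228 and 226 CPM with ETV6_WT, 256, 270.3 and 251 with ETV6_R399C, and 111, 107.7 and 94.1 with tagBFP. In PTPRE and PAG1 the 3 groups did not overlap, and ETV6_R399C was highest.

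INPP5D, which encodes the inositol phosphatase SHIP1, averaged 75.7 CPM in ETV6_WT, 64.0 in ETV6_R399C and 32.9 in tagBFP. Its transcripts differed: the protein-coding INPP5D-201 stood at 12.8 TPM, 11.2 TPM and 4.53 TPM in these groups, and the retained-intron transcript INPP5D-205 at 36.6, 32.2 and 24.3 TPM. SH3BP2, an adaptor of immune-receptor signalling, averaged 44.2, 54.7 and 22.6 CPM in the same order, and TRIM38, a ubiquitin ligase of innate immunity, 75.2, 84.5 and 31.9. BIRC3, the inhibitor-of-apoptosis protein cIAP2, read 1.11, 1.29 and 1.14 CPM with tagBFP, 3.75, 3.68 and 3.80 with ETV6_WT, and 2.44, 3.16 and 3.12 with ETV6_R399C. RGS16, which speeds GTP hydrolysis by G-protein alpha subunits, averaged 4.66, 4.17 and 1.89 CPM, again with ETV6_WT, ETV6_R399C and tagBFP, and SNX20, a sorting nexin of leukocytes, 3.71, 3.41 and 1.12. TLR9, the endosomal receptor for CpG DNA, was uneven, at 3.43, 7.84 and 0.00 CPM with ETV6_R399C and 0.00, 2.63 and 0.64 with tagBFP.

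The 12 regulators of small GTPases and the cytoskeleton had medians of 1.16 and 1.12. TBC1D10C, a GTPase-activating protein that also inhibits calcineurin (chromosome 11, 67403915 to 67410089, forward strand), read 56.0, 63.2 and 58.1 CPM with ETV6_WT, 57.0, 56.6 and 54.0 with ETV6_R399C, and 17.1, 18.0 and 15.7 with tagBFP. PPP1CA lies over it on the other strand and had means of 280.0, 256 and 220 CPM, with differences of 0.35 and 0.22, beside 1.77 and 1.69 for TBC1D10C. RHOB, an endosomal small GTPase encoded by a single annotated transcript, read 141, 139 and 141 CPM with ETV6_WT, 96.1, 95.8 and 94.2 with ETV6_R399C, and 39.7, 38.8 and 38.4 with tagBFP. The 3 groups of RHOB are far apart relative to their spread, and its differences of 1.83 and 1.28 are near the limit between the forms.

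SHROOM3, an actin-binding protein of apical constriction, read 59.0, 64.6 and 60.4 CPM with ETV6_WT, 76.5, 76.8 and 78.5 with ETV6_R399C, and 31.1, 31.0 and 26.2 with tagBFP. AKAP2, an anchor of protein kinase A, had means of 176 CPM with ETV6_WT, 167 with ETV6_R399C and 81.7 with tagBFP; the read-through gene PALM2-AKAP2 on the same strand had means of at most 0.069 CPM in these groups. IQSEC1, an exchange factor for ARF6, had means of 124, 113 and 53.3 CPM in the same order. RIPOR2 had means of 13.8, 11.4 and 4.81 CPM, and the microtubule-binding MAP1S 126, 123 and 63.4. The means of ABLIM1, an actin-binding LIM protein, were 38.5, 37.0 and 19.5 CPM. The kinesin KIF12 (4.64, 4.70 and 2.04 CPM), the scaffold GRASP (2.65, 2.25 and 0.816) and NYAP1, an adaptor of phosphoinositide 3-kinase (2.65, 2.86 and 0.650), were low. FRMD4B, with a FERM domain, read 1.19, 7.17 and 2.23 CPM with ETV6_R399C and overlapped tagBFP.

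The 5 secreted and matrix proteins had medians of 1.44 and 1.22. PDGFA, a growth factor chain, read 79.2, 77.9 and 81.5 CPM with ETV6_WT, 74.9, 70.1 and 71.6 with ETV6_R399C, and 31.6, 30.1 and 30.4 with tagBFP. AGR2, a disulfide isomerase of the secretory pathway, read 17.6, 19.8 and 20.6 CPM, 12.1, 13.2 and 13.5 CPM, and 4.76, 5.49 and 6.0 CPM in the same order. In both genes the 3 groups were separate, with ETV6_WT highest. NPPC, the precursor of C-type natriuretic peptide, had means of 8.09, 6.36 and 2.75 CPM, and the matricellular TINAGL1 of 2.23, 2.81 and 0.505. COL20A1, a collagen chain, read 2.78, 5.12 and 1.25 CPM with ETV6_WT and 3.64, 4.66 and 2.96 with ETV6_R399C, against 0.29, 0.04 and 0.21 with tagBFP, and most of its reads with ETV6_WT fell on transcripts that are not protein-coding, led by the retained-intron COL20A1-206 (35.6%).

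Among the 3 genes of channels, transport and release, BEST3, a bestrophin chloride channel, read 68.2, 69.3 and 68.6 CPM with ETV6_WT, 85.4, 90.9 and 86.4 with ETV6_R399C, and 21.3, 21.2 and 20.2 with tagBFP. RIMS3, a regulator of vesicle exocytosis, read 87.2, 79.8 and 87.0 CPM, 126, 129 and 104.6 CPM, and 35.8, 32.0 and 28.98 CPM in that order. Both were highest with ETV6_R399C without overlap. SLC22A23, of the organic ion transporter family, had means of 24.9, 23.3 and 7.36 CPM.

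Of the 11 other members, SH3TC1, with SH3 and tetratricopeptide repeats (chromosome 4, 8182072 to 8241803, forward strand), read 560.2, 556 and 562 CPM with ETV6_WT, 484, 471 and 433 with ETV6_R399C, and 127, 137 and 121 with tagBFP. It combined a high level with log2 differences of 2.12 and 1.85. DEPP1, a FOXO-induced gene, had means of 10.4 CPM with ETV6_WT, 11.6 with ETV6_R399C and 3.21 with tagBFP, and the cap-binding protein EIF4E3 7.25, 6.08 and 2.95. TMEM263 had means of 163, 157 and 77.6 CPM, and the phosphoinositide phosphatase MTMR1 26.9, 26.5 and 13.8. C15orf62 stood at 3.36, 3.0 and 0.818 CPM. MSLNL, a mesothelin-like gene, read 3.30, 4.62 and 3.63 CPM with ETV6_WT (71 to 121 reads), 2.33, 4.09 and 1.76 with ETV6_R399C, and had no read in the tagBFP libraries. Against a floor of 3 reads per tagBFP library, its mean was at least 35.3-fold higher with ETV6_WT and at least 25.0-fold higher with ETV6_R399C. These folds compare means, and the SD with ETV6_R399C was 44.4% of the mean. Per length, its leading transcript with ETV6_WT was the retained-intron MSLNL-202 (1.94 TPM). MSLNL did not meet the rule with TPM in place of CPM.

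Some differences carry a limit of their own, since reads that match overlapping genes can be divided between them and libraries of a group can be unequal. TIAF1 read 148, 160 and 161 CPM with ETV6_WT, 155, 147 and 144 with ETV6_R399C, and 20.1, 21.7 and 19.2 with tagBFP. It lies within MYO18A on the same strand, which had means of 711, 697 and 761 CPM in the same order. PIWIL4, a Piwi protein, had means of 5.40, 3.68 and 1.20 CPM, and FUT4, which overlaps it on the same strand, 31.8, 29.7 and 26.0. TLR9 is overlapped by AC097637.1, with 2.54, 2.84 and 3.84 CPM. With the reads of same-strand neighbours added, the differences with ETV6_WT and ETV6_R399C were 0.15 and 0.11 for TIAF1. They were 0.45 and 0.29 for PIWIL4, and 0.18 and 0.39 for TLR9. These are the 3 members that fell under 0.9 in this way. Only neighbours with counts of their own could be added. The same-strand neighbours of MSLNL, BEST3, TINAGL1, PTPRE and EIF4E3, among others, had none, so those members were not checked. Such a sum also follows the neighbour's own level, and whether reads were exchanged in these pairs was not tested. SKIV2L, an RNA helicase of the exosome's cofactor complex, held 0.65, 2.74 and 0.00 CPM with tagBFP and has NELFE over it on the other strand. FAM117B read 6.26, 0.00 and 10.3 CPM with ETV6_WT, 10.8, 0.00 and 0.06 with ETV6_R399C, and 0.00, 0.11 and 0.06 with tagBFP, so a library of each form was listed at 0. Its protein-coding transcript FAM117B-201 held 99.1% of the gene's reads with sgCtrl, at a mean of 9.19 CPM for the gene, and none with tagBFP. Whether the zeros listed for FAM117B and RFX7 reflect the estimate or expression was not tested.

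**Figure D3:**
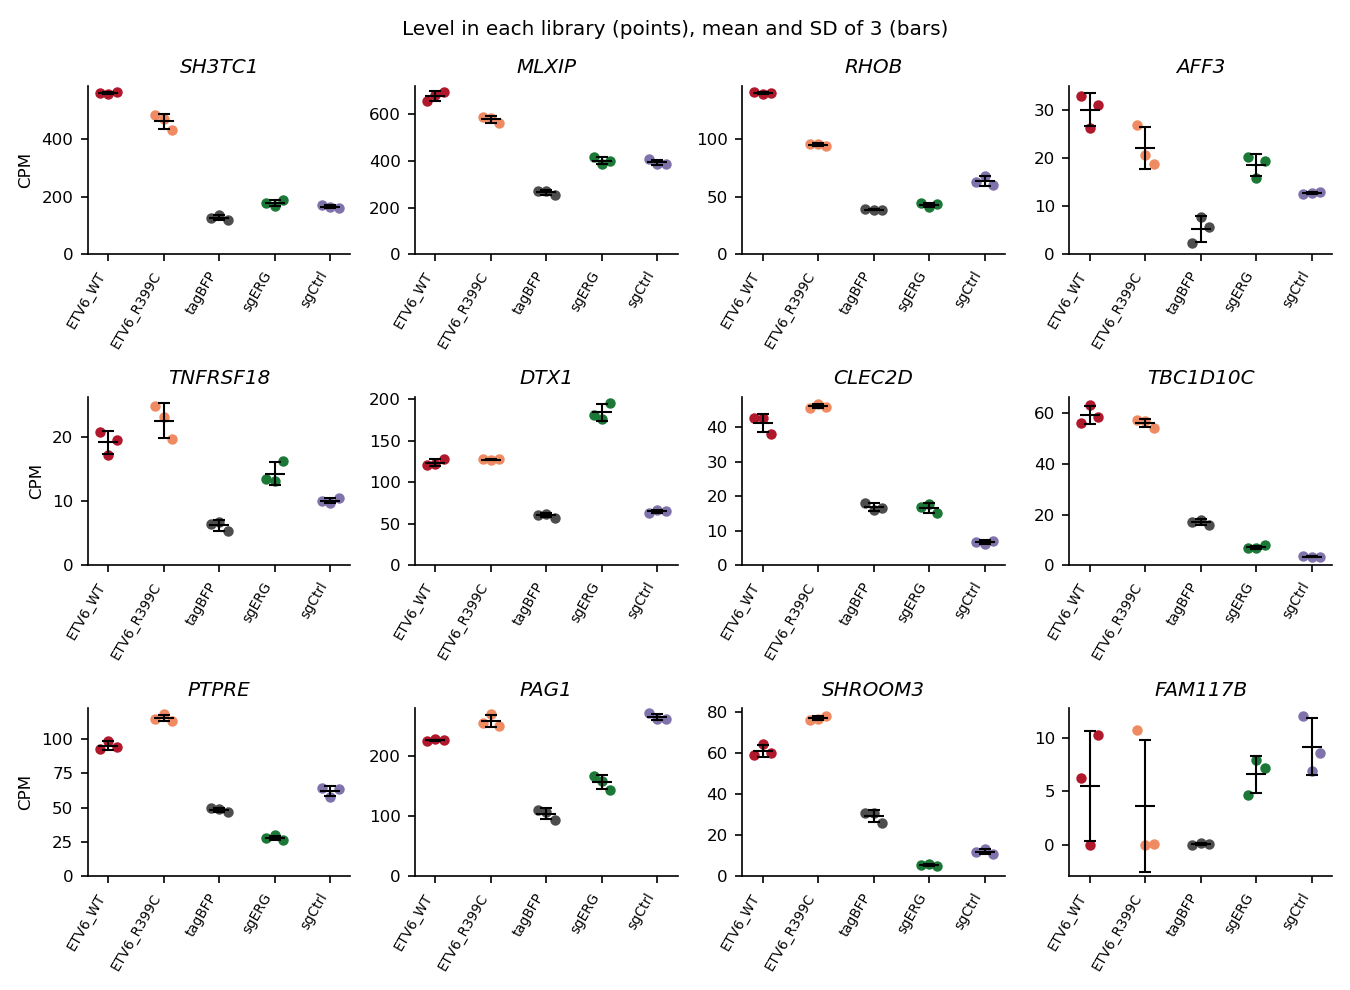
CPM of 12 members in each library (points) with the mean and SD of 3 libraries (bars), by group. SH3TC1, MLXIP and RHOB are highest with ETV6_WT, and PTPRE, SHROOM3 and CLEC2D with ETV6_R399C. DTX1 is highest with sgERG, and the FAM117B libraries of one group spread from 0.00 to over 10.

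Across the members, the transcript with the most reads with ETV6_WT was also the leading one with ETV6_R399C in 52 of 53, with tagBFP in 45 of the 52 that had reads there, and with sgCtrl in 44 of 53. In 48 members it was protein-coding, and the exceptions were COL20A1, TINAGL1, CLEC2D, RFX7 and SKIV2L. The members lie on 19 chromosomes, at most 6 on one, and 2 pairs lie within a megabase, COL20A1 with ZBTB46 (408815 bases apart) and TRIM38 with RIPOR2 (920632 bases apart). Of 25 gene lists with 657 genes, covering the B lineage, adhesion, signalling and other pathways, 20 held no member. Among the members in lists were AFF3 (B-lineage identity), KLF2 (B-cell activation), BEST3 (ion channels and transporters), BIRC3 and TNFRSF18 (NF-kB targets and TNF superfamily). In that last list, 32 genes had at least 2 CPM with ETV6_WT, 3 of them stood at least 0.9 above tagBFP with ETV6_WT and 3 with ETV6_R399C, and the list medians were 0.22 and 0.17.

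Interference at ERG gave measurements that the choice of members did not use. Of the 51 members that passed the filter on low counts, 16 rose and 12 fell with sgERG against sgCtrl (edgeR quasi-likelihood test, Benjamini-Hochberg adjusted p under 0.05). That is 31.4% higher and 23.5% lower, beside 6.89% and 7.74% of the 13464 genes tested. Together 54.9% of the members passed, beside 14.6% of all genes tested and 15.5% of the protein-coding genes with at least 2 CPM with ETV6_WT. Since the libraries of a group may not be separate cultures, the adjusted p-values of this test may rest on technical spread. In 10 members the change passed the test and was at least 2-fold, 8 up and 2 down, beside 1.98% of all genes. COL20A1 and MSLNL were too low to be tested. The members had no common direction: the median log2 change was 0.07, beside 0.00 over all genes, while the median size was 0.45, beside 0.11. The sgERG libraries lay all above or all below the sgCtrl libraries in 33 of the 51 (19 above, 14 below), beside 35.0% of all genes.

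Among the rises, DTX1 read 181, 175 and 195 CPM with sgERG and 63.3, 66.9 and 65.6 with sgCtrl (log2 1.48 ± 0.05 SE, edgeR adjusted p = 5.1e-08). TINAGL1 had the largest estimate from few reads, with 1.32, 1.87 and 1.78 CPM against 0.25, 0.46 and 0.82 (log2 1.66 ± 0.37 SE, edgeR adjusted p = 0.013). CLEC2D read 16.9, 17.9 and 15.2 CPM against 6.84, 6.19 and 7.21 (log2 1.28 ± 0.09 SE, edgeR adjusted p = 5.9e-06). In all 3 genes every sgERG library was above every sgCtrl library. GRASP rose by 1.17 ± 0.11 and TLR9 by 1.32 ± 0.19. The edgeR adjusted p of TLR9, 0.0012, became 0.30 when all 15 libraries entered 1 edgeR fit. The same-strand neighbours were also higher with sgERG. AC007068.1, which overlaps CLEC2D, had means of 5.04 CPM with sgERG and 1.98 with sgCtrl. AC097637.1, which overlaps TLR9, had means of 6.94 and 3.76. Whether reads were shared was not tested here either.

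The smaller rises were those of IQSEC1 (1.17), KIF12 (1.04), TBC1D10C (1.03), RIMS3 (0.91), RGS16 (0.77), NPPC (0.67), AFF3 (0.52), TNFRSF18 (0.48), SH3BP2 (0.45), IRX1 (0.37) and HR (0.24), all log2. TBC1D10C read 6.96, 6.81 and 7.88 CPM with sgERG and 3.59, 3.50 and 3.39 with sgCtrl, both below its tagBFP level. RIMS3 read 156, 152 and 155 CPM against 83.4, 82.0 and 77.3. The AFF3 call was lost in the edgeR fit of all 15 libraries (adjusted p = 0.11), that of SH3BP2 with an offset for transcript length (0.081), and that of HR without sgCtrl replicate 1 (0.060).

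Among the falls, PTPRE read 27.6, 29.8 and 26.6 CPM with sgERG and 64.2, 57.6 and 63.7 with sgCtrl (log2 -1.16 ± 0.06 SE, edgeR adjusted p = 9.2e-07). SHROOM3 read 5.58, 6.20 and 4.92 CPM against 12.03, 13.2 and 10.8 (log2 -1.12 ± 0.11 SE, edgeR adjusted p = 7.6e-05). PAG1 read 167, 160 and 144 CPM against 271, 262 and 262 (log2 -0.78 ± 0.05 SE, edgeR adjusted p = 4.1e-06). The groups did not overlap in these genes. DEPP1 fell by 0.90 on the log2 scale, AKAP2 and EIF4E3 by 0.75, TIAF1 by 0.73, TRIM38 by 0.62, RHOB by 0.59, ABLIM1 by 0.45, ZBTB46 by 0.31 and TMEM263 by 0.25. MYO18A, in which TIAF1 lies, had means of 941.5 CPM with sgERG and 1230 with sgCtrl. The ZBTB46 call (edgeR adjusted p = 0.025) was lost with the length offset (0.069) and without sgERG replicate 1 or 2 or sgCtrl replicate 1 or 3 (0.069 to 0.12).

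**Figure D4:**
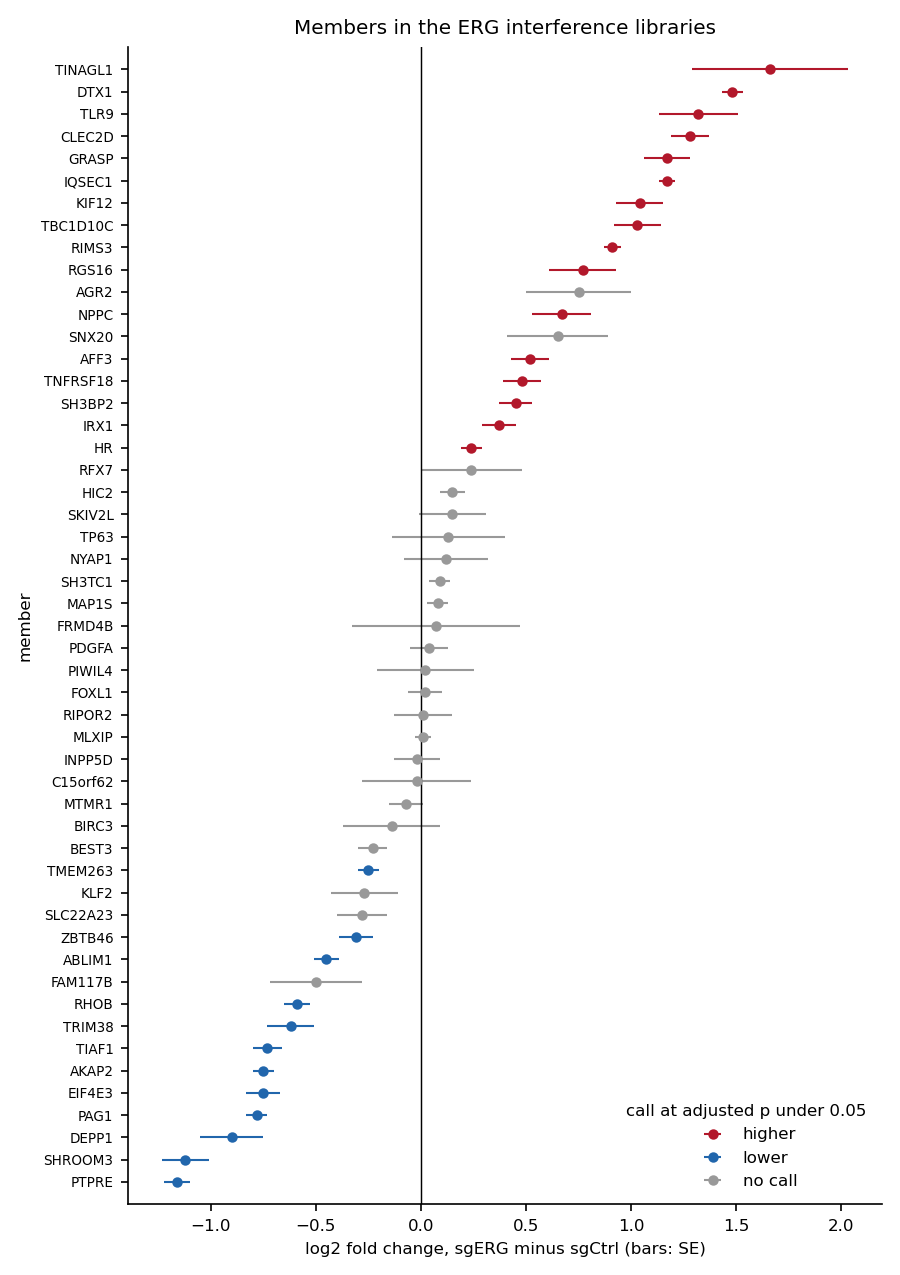
Log2 fold change with sgERG against sgCtrl (horizontal axis) for the 51 members tested, ordered by value, with the SE as bars. Red marks the 16 members that rose, blue the 12 that fell and grey those without a call; the values run from -1.16 (PTPRE) to 1.66 (TINAGL1).

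By role, the immune signalling group had 6 rises and 3 falls among 12 members, the small GTPase and cytoskeleton group 4 and 4 among 12, and the transcription group 3 and 1 among 10. The secreted group had 2 rises and no fall. The group of other members had 4 falls and no rise. Differences between these groups were not tested. The members without a call included SH3TC1 (0.09 ± 0.05 SE), MLXIP (0.01 ± 0.04), PDGFA (0.04 ± 0.09) and INPP5D (-0.02 ± 0.11), all close to 0, and AGR2 (0.75 ± 0.25, edgeR adjusted p = 0.076), SNX20 (0.65 ± 0.24, 0.11), FAM117B (-0.50 ± 0.22, 0.17) and BEST3 (-0.23 ± 0.07, 0.060), which were not.

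The sgCtrl libraries are another control, whose values the rule did not use, but vector, selection and time differ between the experiments and cannot be told apart from the ETV6 transgenes. Relative to sgCtrl, 43 of the 53 members had higher means with both ETV6 forms and 9 had lower means with both. In 27 (50.9%) both forms stood at least 0.9 above sgCtrl, beside 7.35% of the 10986 genes. In 2, RFX7 and HR, both stood at least 0.9 below, beside 4.96%. The ETV6 means in these differences are those by which the members were selected as high, so shares above those of all genes follow in part from the choice and support nothing. The members at least 2 above sgCtrl with both forms (log2) were TBC1D10C (3.90 and 3.82), PDGFA (3.37 and 3.23), AGR2 (3.57 and 3.01), MSLNL (3.10 and 2.67), TIAF1 (2.99 and 2.92), CLEC2D (2.53 and 2.69), COL20A1 (2.33 and 2.60), SHROOM3 (2.30 and 2.63) and SH3BP2 (2.24 and 2.54).

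The control groups themselves differed for many members. The tagBFP and sgCtrl means were at least 2-fold apart in 18 members (34.0%), 6 higher and 12 lower with tagBFP, beside 13.9% of the 10986 genes. Since the members were chosen partly for a low tagBFP level, that share is a description. PAG1 is an example: sgCtrl read 271, 262 and 262 CPM, above the ETV6_WT libraries, while tagBFP read 111, 107.7 and 94.1. MAP1S with sgCtrl (121, 126 and 119 CPM) lay close to both ETV6 forms. The 9 members with a higher mean in sgCtrl than with either ETV6 form were PAG1, EIF4E3, MTMR1, NYAP1, GRASP, HR, SKIV2L, RFX7 and FAM117B. In contrast, TBC1D10C (3.59, 3.50 and 3.39 CPM), PDGFA (7.56, 6.81 and 7.38) and SHROOM3 (12.03, 13.2 and 10.8) were lower with sgCtrl than with tagBFP.

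**Figure D5:**
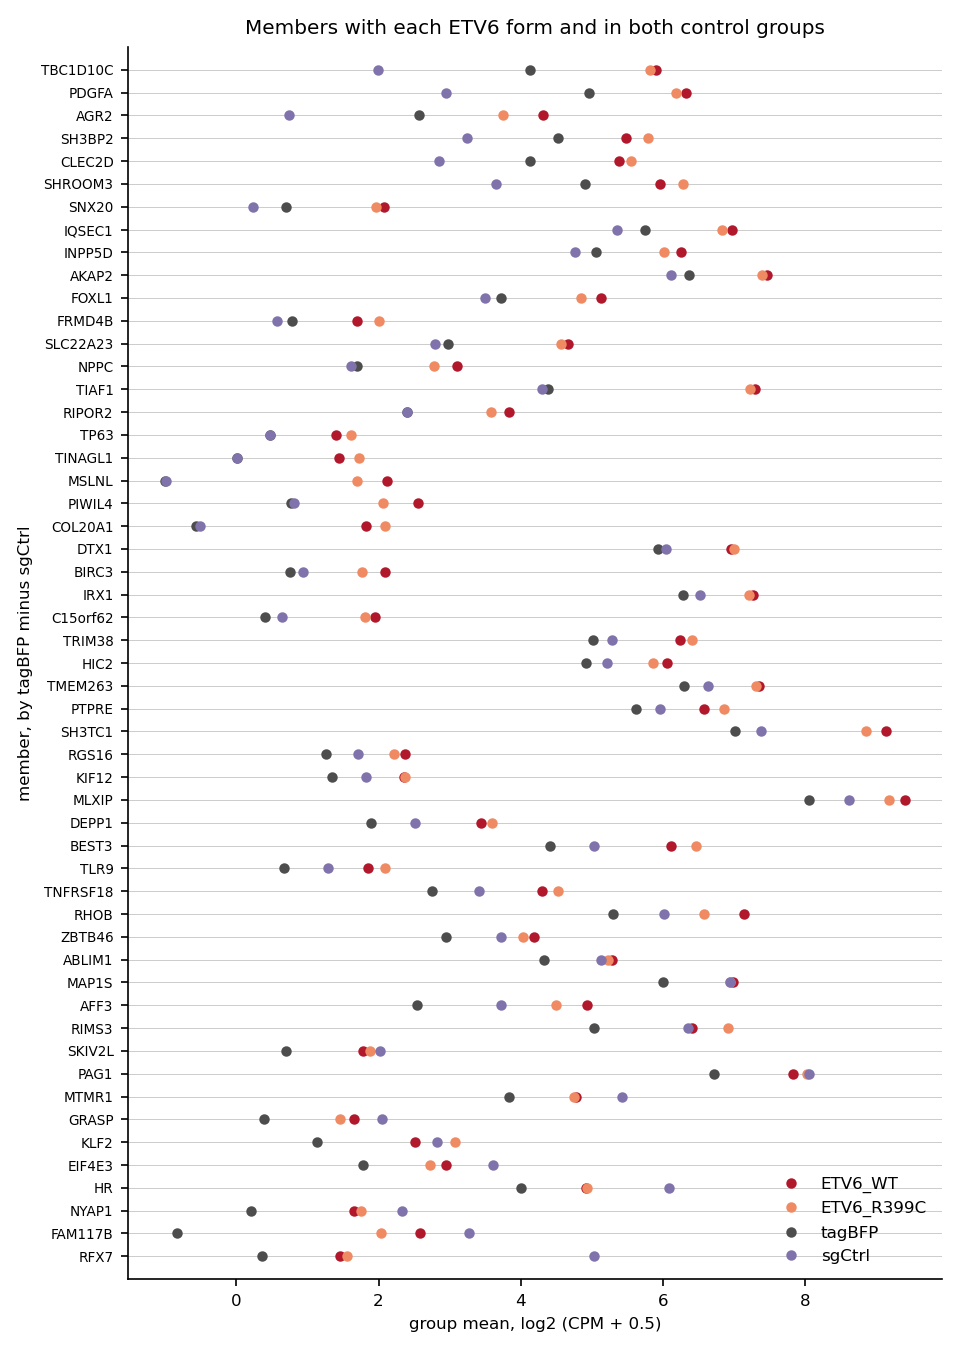
Group means in log2 of CPM + 0.5 for each member (rows, ordered by tagBFP minus sgCtrl) with ETV6_WT, ETV6_R399C, tagBFP and sgCtrl. In the upper rows, from TBC1D10C on, both controls lie below the ETV6 forms; in the lowest rows, such as EIF4E3, HR and RFX7, sgCtrl lies above them.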

How the data were processed

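Messenger RNA of 15 Reh libraries was analysed from 1 table per library. Per the file headers, the tables hold, for each transcript, an estimated count of reads, TPM, length and effective length. The authors' notes name Salmon 0.11.3 and hg38, per the submitters' processing notes. For the strand setting, bias options and filters of that step, no value is given in the sources used here. Estimated counts were deposited without scaling across libraries. TPM as deposited sums to one total in every library. The deposited effective length was used for 1 alternative only.

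Each table listed 167268 transcripts, of which 90.3% were named by GENCODE release 29. The others, with 6.67% to 7.56% of a library's reads, were left out. Estimated counts were summed per gene, and rounded for the tests. Members came from CPM on gene totals, as described in the report. The test was edgeR 4.0.16 (quasi-likelihood, TMM, default filter on low counts, Benjamini-Hochberg over all genes tested, threshold 0.05) in R 4.3.3 on sgERG and sgCtrl, and was tested on simulated data. What edgeR terms the biological coefficient of variation was 6.24%, a spread between libraries that may be technical here. SE is the size of the log2 change divided by the square root of F. DESeq2 1.42.0 was an alternative. Replicates of a group differed beyond sampling noise (chi-square per degree of freedom 2.79 to 13.99).

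The members, gene lists and alternatives were chosen with earlier results of these data known. The naming rule took the members with the 15 highest values of the smaller difference from tagBFP, the 5 largest rises and falls with sgERG, those in lists and the 3 highest in TPM (28 genes). The others are named to account for every member, and where they are given library by library (such as PDGFA, AGR2, RFX7 and MAP1S) they were chosen after their values were seen. Sequences are from RefSeq.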

Additional observations from a re-analysis of the deposited data

How the results depend on the processing

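The number of members was 53 and ranged from 42 (pseudocount of 1 CPM) to 61 (0.1 CPM) over the scaling, pseudocount and between-form settings, and from 51 to 63 with a library left out. A rise of at least 0.8 gave 80 members and of at least 1.0 gave 40. With TPM in place of CPM, 60 genes met the rule but only 31 were among the 53, and of the 22 lost, 10 had under 2 TPM. The others lost had at least 2 TPM and missed a limit on the differences themselves. They were ABLIM1, AFF3, EIF4E3, FRMD4B, HR, INPP5D, KLF2, MAP1S, MSLNL, RGS16, SH3BP2 and ZBTB46. For these genes, raised alike holds for CPM and not per length. With sgERG, 15 to 17 members rose and 11 to 13 fell under all alternatives (DESeq2 16 and 13). The median member change was 0.15 with an offset for transcript length, and 0.04 to 0.11 with a library left out. Calls over all genes numbered 1969 and ranged from 1160 to 2302 with a library left out, lowest without sgCtrl replicate 1 (1160) or 3 (1162), against 2855 with all 15 libraries in 1 fit. A replicate block gave 16 rises and 12 falls among members and 1536 calls over all genes. Same-numbered sgERG and sgCtrl libraries did not deviate together over the tested genes (correlations of 0.02, -0.06 and 0.01). That cannot show whether libraries with the same number were handled together. BEST3 gained a call with DESeq2 (adjusted p = 0.047). The count at least 0.9 above sgCtrl was 27, and 23 to 28 under the alternatives. Members under 2 CPM in a control rest on few reads.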
